A study of Mus musculus with 8 samples.

Results

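Macrophage and complement marker genes were followed in granulocytic myeloid-derived suppressor cells (Gr-MDSCs), the neutrophil-like cells that restrain T cells inside tumors. The 10 genes were C1qa, C1qb, C1qc, C3ar1, C5ar1, Adgre1, Cd68, Mrc1, Ms4a7 and Apoe, taken by name, and all of their probe sets that match a single gene were used. They held 16 of the 34945 single-gene probe sets and 10 of the 18193 genes on the array. RNA came from 8 samples, hybridised to 1 array each: 4 treated with DMSO (replicates 2 to 5), 2 with Dactolisib (replicates 1 and 2) and 2 with Dasatinib (replicates 1 and 2). Dactolisib blocks PI3K and mTOR kinases, Dasatinib blocks tyrosine kinases of the Src and Abl families, and each was given at 0.1 µM for 6 h to cells kept in medium with 10% serum. All 3 groups came from male mice, 12 to 16 weeks old by the labels, that were PB-Cre+ with PtenL/L, p53L/L and Smad4L/L alleles and with the reporters mTmGL/+ and LSL-LucL/+. The probasin promoter drives Cre in prostate epithelium, so the deletions lie in the tumor and the Gr-MDSCs are host cells drawn from it. The males were 8 to 12 weeks old at the start, were castrated once the tumor reached 150 mm3, and then ate enzalutamide, an androgen receptor blocker, for 4 weeks. Cells were taken from dissociated tumors by magnetic sorting with an MDSC isolation kit, and the sources do not tie replicates to different mice or culture wells, so the p-values below measure the spread between samples, which may be technical.

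C1qa, C1qb and C1qc encode the 3 chains of C1q, the recognition molecule that starts the classical complement pathway, and tissue macrophages are its best known source. C3ar1 and C5ar1 encode the receptors of the complement fragments C3a and C5a, which attract and activate myeloid cells, and C5ar1 is also abundant on neutrophils. Adgre1 encodes an adhesion receptor long used as a macrophage surface marker, Cd68 a lysosomal glycoprotein, Mrc1 the mannose receptor CD206, Ms4a7 a membrane protein of macrophages and Apoe the lipid-carrying apolipoprotein E. Signal from these genes in a Gr-MDSC preparation can come from Gr-MDSCs or from other cells in it, and on bulk arrays fewer cells of a type cannot be told apart from less RNA per cell.

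The upstream sequences of members whose signal was lower with Dactolisib, and of C1qb, which lies between Ephb2 and C1qc on chromosome 4, are shown because C1qb, C1qc and C1qa are neighbors in that order and kept to a similar pattern across the arrays. They are the 250 bases before the gene start on GRCm38.p6 as RefSeq gives them, written 5′ to 3′ on the strand of the gene, all 3 on the minus strand. Capitals mark GAGGAA or its reverse complement TTCCTC, the letters at the core of sites bound by PU.1, a transcription factor of myeloid cells. The windows are C1qb at chr4:136886201-136886450, C1qc at chr4:136892915-136893164 and C3ar1 at chr6:122856158-122856407.
C1qb: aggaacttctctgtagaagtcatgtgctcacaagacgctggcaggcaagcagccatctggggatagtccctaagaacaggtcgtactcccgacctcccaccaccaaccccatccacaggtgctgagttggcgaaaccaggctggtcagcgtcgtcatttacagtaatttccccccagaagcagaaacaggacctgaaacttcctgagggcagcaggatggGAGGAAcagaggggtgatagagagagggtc
C1qc: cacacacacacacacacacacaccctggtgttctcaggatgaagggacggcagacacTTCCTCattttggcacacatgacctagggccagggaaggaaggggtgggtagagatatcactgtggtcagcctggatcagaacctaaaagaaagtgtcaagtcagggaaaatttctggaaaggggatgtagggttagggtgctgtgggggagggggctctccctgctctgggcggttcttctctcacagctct
C3ar1: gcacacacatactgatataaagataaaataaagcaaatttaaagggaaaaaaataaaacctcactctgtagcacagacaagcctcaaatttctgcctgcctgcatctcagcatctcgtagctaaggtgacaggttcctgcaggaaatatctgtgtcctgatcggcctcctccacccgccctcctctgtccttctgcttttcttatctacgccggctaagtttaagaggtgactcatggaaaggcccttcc

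The table of upstream sequences held 11 windows for 8 of the 10 genes, all but C1qa and Adgre1. GAGGAA on either strand occurred in 6 of the 11 windows, those of C1qb, C1qc, Cd68, Mrc1 and Apoe, and in 23.3% of all 32851 windows of the same length. TGCTGAC, letters of the site of Maf transcription factors, occurred on either strand in 0 of the 11 windows and in 3.8% of all windows. Neither motif contains the other, and these matches describe letters only.

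The 8 arrays fell into 3 sets by their correlation, found with the 16 member probe sets and a list of 30 other macrophage genes left out. Set A held DMSO 2, DMSO 4 and Dactolisib 1, set B held DMSO 3, Dactolisib 2 and Dasatinib 2, and set C held DMSO 5 and Dasatinib 1. The lowest correlation inside a set was 0.987 and the highest between sets was 0.980, and no label names these sets. Set A held no Dasatinib array and set C no Dactolisib array. The array medians, from 4.82 to 4.87 on the log2 scale, were nearly equal. Each drug was therefore compared with DMSO by limma in 2 fits, without a block and within array sets. The fit without a block is the unpaired design that the methods name. Within sets, Dactolisib is set against DMSO 2, 3 and 4 and Dasatinib against DMSO 3 and 5. Neutrophil RNA was plain on all arrays: the log2 signals of S100a8 lay between 13.53 and 13.85 and those of S100a9 between 13.69 and 14.12, while Ly6g, the marker used in the sort, was not analysed here. Some other granulocyte genes varied far more, such as Ngp from 6.70 to 10.45 and Ltf from 9.29 to 12.94. The monocyte and macrophage genes Cd14 and Csf1r were also bright on all arrays, from 13.19 to 13.48 and from 11.43 to 12.47. Both were among the brightest genes of the list of 30, so they do not stand for the whole list. Other genes of it were dim, such as Mertk from 3.94 to 4.24, Cd163 from 2.93 to 4.15 and Timd4 at 3.41 or less.

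The 3 C1q chains were highest in set C, the array pair with the most epithelial RNA. Log2 signal of C1qa was 7.88 on DMSO 2, 7.78 on DMSO 4 and 7.47 on Dactolisib 1. It was 7.60 on DMSO 3, 7.27 on Dactolisib 2 and 7.44 on Dasatinib 2, then 9.13 on DMSO 5 and 9.05 on Dasatinib 1. Both arrays of set C stood above all the others, a mean 1.52 higher or 2.86-fold on the linear scale, and within sets A and B the Dactolisib array was the lowest. C1qc followed the same order, with 6.91 on DMSO 2, 6.84 on DMSO 4 and 6.42 on Dactolisib 1, with 6.97 on DMSO 3, 6.56 on Dactolisib 2 and 6.68 on Dasatinib 2, and with 8.04 on DMSO 5 and 7.99 on Dasatinib 1. C1qb, on its brightest probe set 1417063_at, gave 7.70 on DMSO 2, 7.59 on DMSO 4 and 7.37 on Dactolisib 1, then 7.93 on DMSO 3, 7.65 on Dactolisib 2 and 7.80 on Dasatinib 2, and 8.89 on DMSO 5 and 8.94 on Dasatinib 1. Its other probe sets, 1437726_x_at and 1434366_x_at, whose names mark probes that may also bind other transcripts, were higher in set C by 1.15 and 1.16 on the log2 scale, close to the 1.24 of the first.

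Apoe and Mrc1 had the same kind of step. Apoe gave log2 signals of 9.61 on DMSO 2, 9.59 on DMSO 4, 9.39 on Dactolisib 1, 9.78 on DMSO 3, 9.49 on Dactolisib 2 and 9.65 on Dasatinib 2, against 10.93 on DMSO 5 and 11.12 on Dasatinib 1. Mrc1 was dim, from 4.49 to 4.79 on the 6 arrays of sets A and B, and reached 6.56 on DMSO 5 and 6.10 on Dasatinib 1, a mean of 3.17-fold higher and the largest step among the members. Ms4a7 on 1424754_at moved less, from 7.32 to 7.45 on the 6 arrays and 8.02 and 7.77 in set C. Its other probe set, 1445365_at, lay between 2.37 and 2.79 on all arrays and was the 1 of the 16 that the filter on low signal left out.

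The receptors and the general macrophage markers behaved otherwise. C5ar1 ran the opposite way: on 1439902_at it gave 10.37 on DMSO 2, 10.25 on DMSO 4, 10.02 on Dactolisib 1, 10.13 on DMSO 3, 9.74 on Dactolisib 2 and 10.10 on Dasatinib 2, but 8.99 on DMSO 5 and 9.19 on Dasatinib 1. Set C was thus lowest, at a mean of 0.497 times the other arrays, and the second probe set, 1422190_at, gave 0.463 times. C3ar1 on 1419482_at was only slightly higher in set C, with 7.04 on DMSO 5 and 7.18 on Dasatinib 1 against 6.46 to 6.93 elsewhere. Its 3 probe sets disagreed there, since 1442082_at was also higher in set C by 0.63 while the arrays of 1419483_at overlapped. Adgre1 was 9.28 on DMSO 2, 9.51 on DMSO 4, 9.08 on Dactolisib 1, 9.61 on DMSO 3, 9.49 on Dactolisib 2, 9.67 on Dasatinib 2, 9.43 on Dasatinib 1 and lowest, at 8.69, on DMSO 5. Cd68 was likewise lowest on DMSO 5, at 10.99, and lay between 11.45 and 11.78 on the other arrays. The members therefore gave no single measure of macrophage RNA, because C1q, Apoe and Mrc1 put set C at the top, C5ar1 put it at the bottom, and Adgre1 and Cd68 set DMSO 5 apart from Dasatinib 1 within it.

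**Figure D1:**
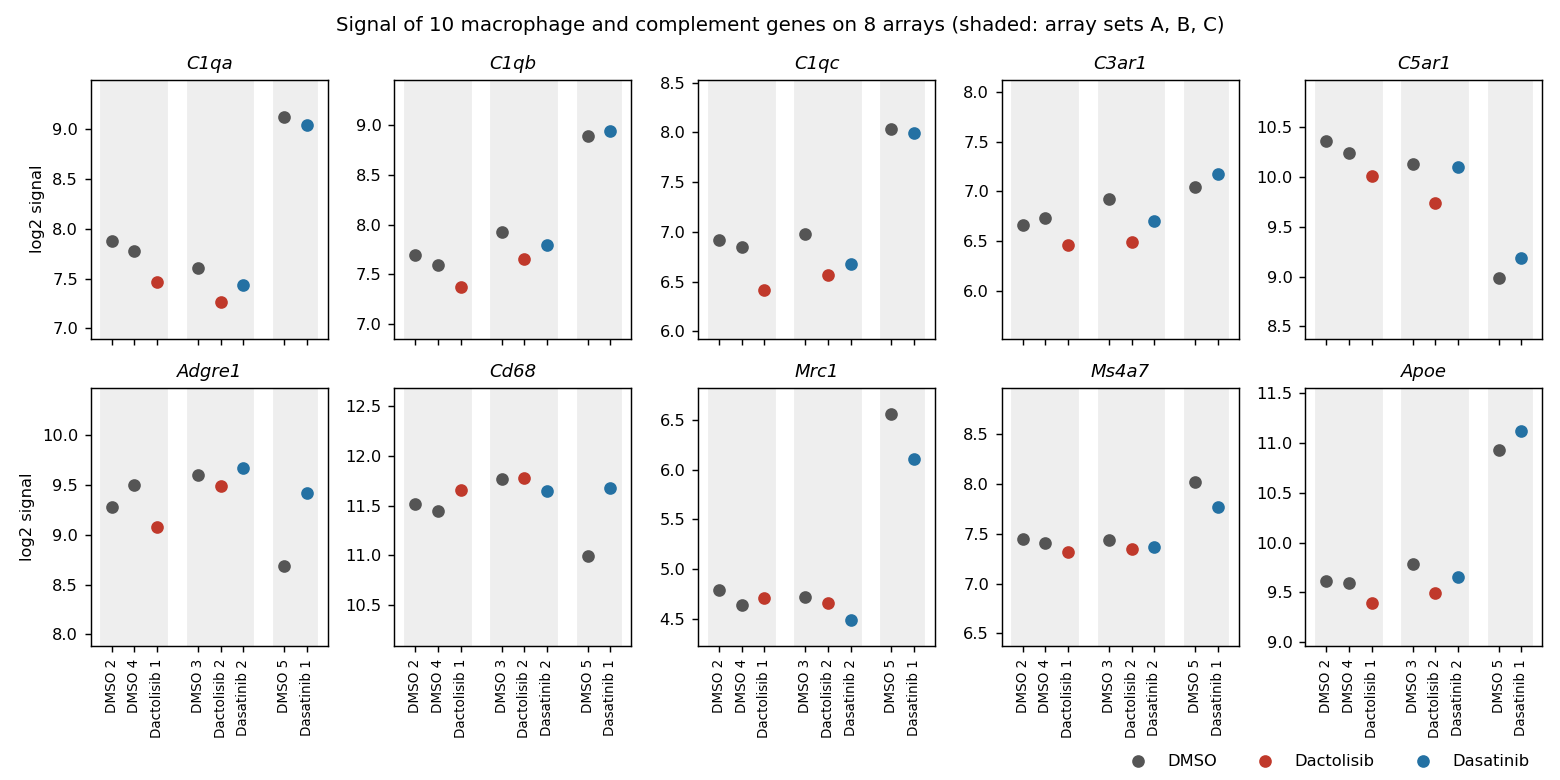
Log2 signal (vertical axis, the same span in each panel) of the 10 genes on their brightest probe set for each of the 8 arrays (horizontal axis), with gray for DMSO, red for Dactolisib, blue for Dasatinib and shading for array sets A, B and C from left to right. C1q, Apoe and Mrc1 are highest on DMSO 5 and Dasatinib 1, C5ar1 is lowest there, and the red points are the lowest of their set for C1q, C3ar1, C5ar1, Adgre1, Ms4a7 and Apoe.

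Of the 15 tested member probe sets, 10 were higher in both arrays of set C than on the other 6 arrays, 2 were lower and 3 overlapped. Over all 30025 tested probe sets 21.2% were higher and 32% lower in the same way, so separation of set C was common on the array, and it is described without a test because the sets were drawn from these arrays. Granulocyte genes and markers of other cells moved with it. All 12 of 12 epithelial genes were above the other arrays in set C, where their summed level was 15.51 on DMSO 5 and 15.49 on Dasatinib 1, against 12.80 to 13.08 in set A and 10.75 to 11.06 in set B on the log2 scale. The keratin Krt8, for example, gave 13.31 and 13.37 in set C, 9.88 to 10.43 in set A and 8.09 to 8.33 in set B. Between sets A and B, where this list was lower in B, the mean of C1qa was also lower in B, at 7.44 against 7.71, that of C1qb on 1417063_at was higher, at 7.79 against 7.55, and that of C1qc was 6.74 against 6.73. Fibroblast genes were highest on DMSO 5, with a summed level of 11.52, against 10.74 on Dasatinib 1, 10.56 to 10.68 in set A and 8.60 to 8.80 in set B. Granulocyte genes summed to 15.46 to 15.93, yet 7 of 13 tested were below the other 6 arrays in set C and 0 above. The 27 other macrophage genes with a probe set summed to 14.39 on DMSO 5, their lowest, and to 14.52 to 14.77 on the other arrays. Most of that sum comes from the brightest genes, Cd14, Csf1r, Clec7a and Slc40a1, so it says little of the dimmer ones. Of 24 tested macrophage genes, 5 were above the other 6 arrays in set C and 1 below. The part of these cells in the member signals was not tested.

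Among 14228 tested genes, with the members left out of the search, the 5 whose pattern was most like that of C1q were not on the macrophage list. Likeness was the root mean square difference, over the 8 arrays, between a gene's log2 signal about its own mean and the mean pattern of C1qa, C1qb and C1qc, which itself had a root mean square of 0.60. The nearest were Rmdn3 at 0.058, Snrpf at 0.068, Cct3 at 0.068, Lrrc59 at 0.077 and Pum3 at 0.081. Snrpf encodes a core spliceosome protein and Cct3 a chaperonin subunit. Cct3 gave log2 signals of 8.84 on DMSO 2, 8.78 on DMSO 4, 8.60 on Dactolisib 1, 8.79 on DMSO 3, 8.55 on Dactolisib 2 and 8.76 on Dasatinib 2, then 10.17 on DMSO 5 and 10.07 on Dasatinib 1. Among the members the distance was 0.048 for C1qc, 0.098 for Apoe, 0.12 for C1qb and 0.14 for C1qa, then 0.22 for Mrc1, 0.38 for Ms4a7 and 0.40 for C3ar1. It was 0.76 for Cd68, 0.79 for Adgre1 and 1.03 for C5ar1, each more than the size of the pattern itself.

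With Dactolisib, C1qa, C1qc and 1 of the 3 probe sets of C3ar1 fell against DMSO of the same array sets. Within sets C1qa fell by 0.35 ± 0.08 (SE) on the log2 scale, to 0.786 times DMSO (limma, adjusted p = 0.0476). C1qc fell by 0.44 ± 0.08, to 0.738 times (adjusted p = 0.0232), and C3ar1 on 1419483_at fell by 0.45 ± 0.08, to 0.735 times (adjusted p = 0.0213). These 3 of the 15 tested probe sets were called lower and 0 higher, where 4.2% of all tested probe sets were lower and 2.19% higher. C3ar1 on 1419483_at gave 5.74 on DMSO 2, 5.72 on DMSO 4 and 5.29 on Dactolisib 1, and 6.08 on DMSO 3 and 5.63 on Dactolisib 2. In both sets the Dactolisib array of each of these 3 probe sets lay below every DMSO array.

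The other members mostly had estimates in the same direction that did not pass. C5ar1 differed by -0.40 ± 0.10 on 1422190_at (limma, adjusted p = 0.0576) and by -0.33 ± 0.08 on 1439902_at (adjusted p = 0.059). C3ar1 differed by -0.32 ± 0.09 on 1419482_at (adjusted p = 0.0728) and by -0.35 ± 0.13 on 1442082_at (adjusted p = 0.162). The 3 probe sets of C1qb differed by -0.27, -0.21 and -0.15, with a lowest adjusted p of 0.089, and so the call for C1q rests on C1qa and C1qc. With the array set as a random block neither passed (limma, adjusted p = 0.263 for C1qa and 0.132 for C1qc), and the 1 call left was C3ar1 on 1419483_at. Apoe differed by -0.25 ± 0.08 (adjusted p = 0.108) and Adgre1 by -0.23 ± 0.10 (adjusted p = 0.22). Ms4a7 at -0.11 ± 0.08, Mrc1 at -0.03 ± 0.08 and Cd68 at 0.11 ± 0.08 lay closest to 0, with 95% intervals from -0.28 to 0.07, from -0.23 to 0.17 and from -0.09 to 0.30.

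Read array by array, 14 of the 15 probe sets were lower than DMSO of their own set on both Dactolisib arrays and 1, Cd68, was higher on both. Over all tested probe sets 33.5% were lower and 32.1% higher on both. The 15 include several probe sets of the same gene. Counted by the brightest probe set of each gene, 9 of 10 members were lower and 1 higher, beside 5034 and 4505 of 14238 genes. Mrc1 was lower by little, at -0.003 and -0.07, with 0.15 between DMSO 2 and DMSO 4. Both Dactolisib arrays lay below every DMSO array of their own set for 13 of the 15, and for 27.3% of all tested probe sets. The 2 arrays gave close values for C1q: C1qa differed by -0.36 and -0.33 from its own DMSO, C1qc by -0.46 and -0.41, and C1qb on 1417063_at by -0.28 and -0.27. DMSO 2 and DMSO 4, the single pair of controls in 1 set, differed by 0.10, 0.07 and 0.11 for those probe sets. C3ar1 on 1442082_at was less even, with -0.59 and -0.04 against 0.19 between these controls. The median difference over the 15 was -0.27 and that over all tested probe sets was 0.00.

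**Figure D2:**
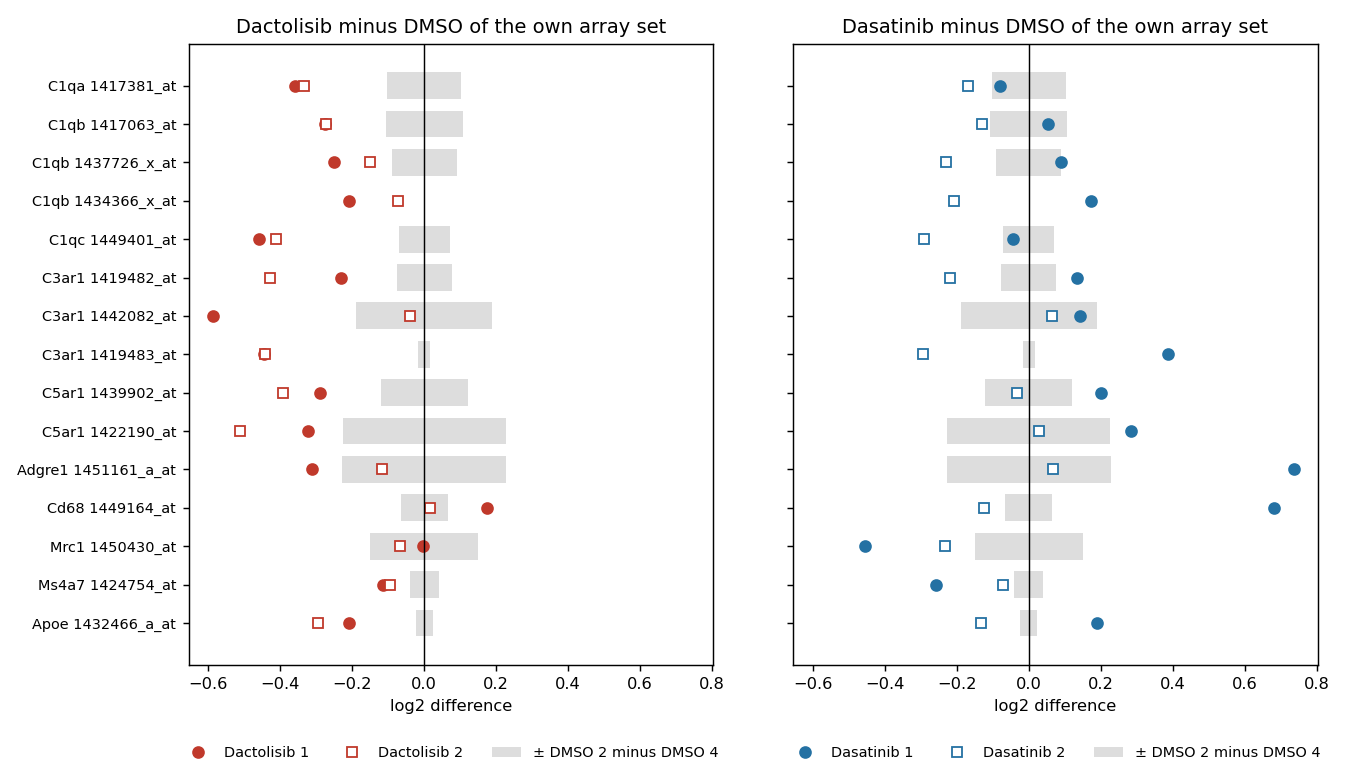
Log2 difference from DMSO of the same array set (horizontal axis) for the 15 tested member probe sets (rows), with replicate 1 filled and replicate 2 open, and gray bars spanning the difference between DMSO 2 and DMSO 4 to either side of 0. Both Dactolisib points lie left of 0 for 14 of 15 rows, while the Dasatinib points often fall on opposite sides, as for Cd68 at 0.68 and -0.12. The controls of the gray bars both belong to set A, which holds no Dasatinib array.

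Without a block, where the 4 DMSO arrays are pooled, 0 of the 15 passed, as did 0% of all tested probe sets (limma, lowest adjusted p of the members 0.775). At an unadjusted p under 0.05, 2 of the 15 were lower and 0 higher by limma, beside 3.35% and 2.89% of all tested probe sets. By the methods' t-test 0 of the 15 were, beside 3.18% lower and 3.11% higher over all. The estimates were larger but far less sure: C1qa differed by -0.73 ± 0.43, C1qc by -0.70 ± 0.36 and Apoe by -0.54 ± 0.40, with DMSO means of 8.10 ± 0.70, 7.19 ± 0.57 and 9.98 ± 0.64 (SD, n = 4). Without DMSO 5, whose set holds no Dactolisib array, the lowest adjusted p by limma was 0.253, with 0 passing and 5 of the 15 lower at an unadjusted p under 0.05. In that fit 0 of all tested probe sets passed, and 7.26% were lower and 4.46% higher at that unadjusted p. C5ar1 differed by -0.06 ± 0.40 on 1439902_at, and Adgre1 by 0.02 ± 0.28, a turned sign.

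**Figure D3:**
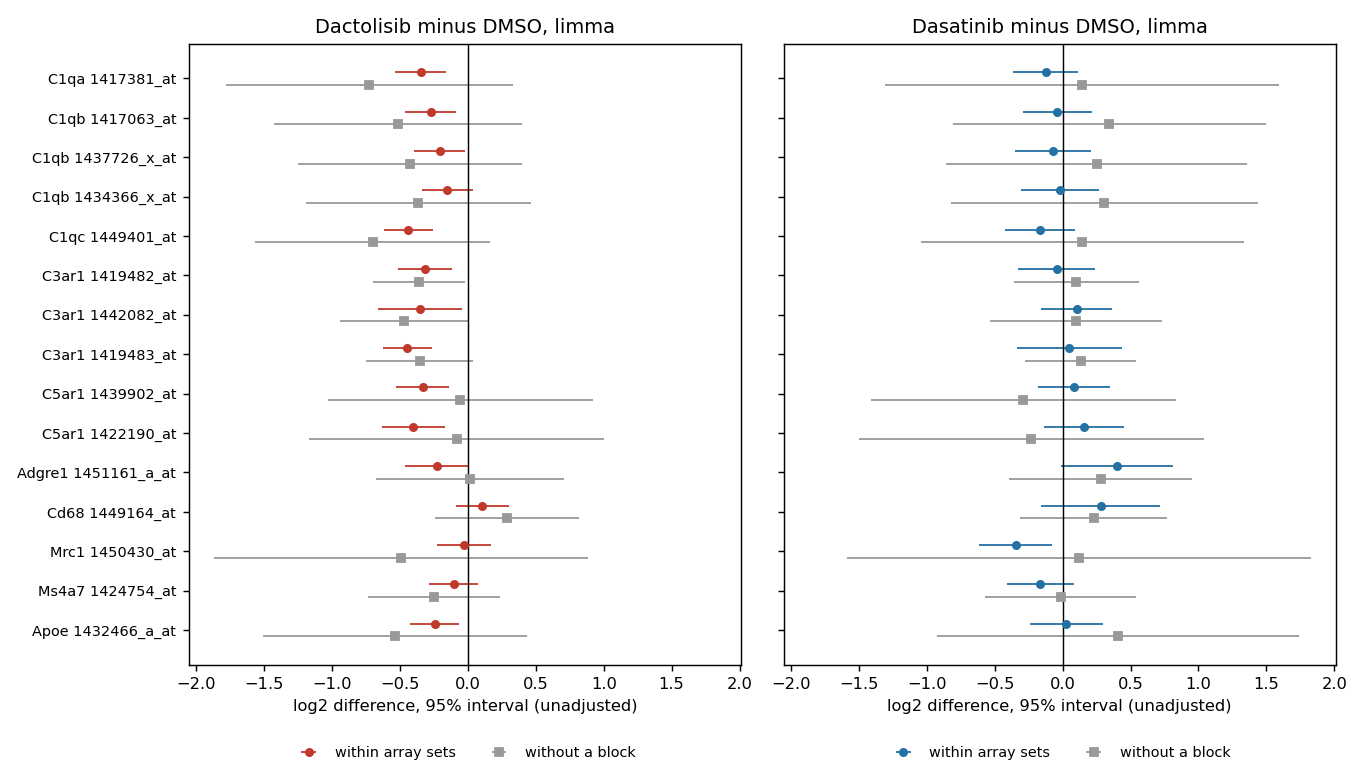
Estimated log2 difference of each drug from DMSO with its unadjusted 95% interval (horizontal axis) for the 15 tested member probe sets (rows), within array sets in color and without a block in gray. The intervals within sets are shorter in every row, and both fits differ in sign in several rows, among them Adgre1 with Dactolisib and C1qa, C1qb, C1qc and Mrc1 with Dasatinib.

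The calls with Dactolisib depended on single arrays. Leaving out Dactolisib 1, Dactolisib 2 or DMSO 3 left 0 of the 15 called within sets, as it left 0 of all 30025 tested probe sets, because each leaves 1 set alone to carry the comparison. The differences were then -0.33 for C1qa and -0.41 for C1qc without Dactolisib 1, and -0.36 and -0.46 without Dactolisib 2 or DMSO 3. Leaving out DMSO 2 gave 4 calls and DMSO 4 gave 3. A single fit of all 8 arrays within sets, in which the Dasatinib arrays add to the estimate of the spread, also called 0 (limma, lowest adjusted p of the members 0.052). C1qa was no longer called without DMSO 2 (adjusted p = 0.0634) or without DMSO 4 (adjusted p = 0.058).

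Dasatinib gave no call among the members. Within sets 0 of the 15 passed, as did 0% of all tested probe sets (limma, lowest adjusted p 0.85), and at an unadjusted p under 0.05 there was 1 lower, Mrc1, and 0 higher. Over all tested probe sets 2.75% were lower and 2.12% higher at that unadjusted p. Mrc1 differed by -0.35 ± 0.11, with -0.46 on Dasatinib 1 and -0.23 on Dasatinib 2 against 0.15 between DMSO 2 and DMSO 4. These controls both belong to set A, which held no Dasatinib array, so they do not measure the control spread in sets B and C. C1qa differed by -0.12 ± 0.10, C1qb by -0.04 ± 0.11 and C1qc by -0.17 ± 0.11, with 95% intervals from -0.36 to 0.12, from -0.29 to 0.21 and from -0.43 to 0.09. Decreases of the size estimated for Dactolisib therefore lay just inside the interval for C1qa and C1qb and just outside it for C1qc. Apoe differed by 0.03 ± 0.11 and C5ar1 on 1422190_at by 0.16 ± 0.12.

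The 2 Dasatinib arrays did not run together. Adgre1 was 0.74 above DMSO 5 on Dasatinib 1 and 0.07 above DMSO 3 on Dasatinib 2, and Cd68 differed by 0.68 and -0.12. C3ar1 on 1419483_at differed by 0.39 and -0.29. Of the 15 probe sets 4 were lower and 3 higher on both arrays, where 24.9% and 22.3% of all tested probe sets were. Some granule genes and markers of other cells also differed between Dasatinib 1 and DMSO 5. The median difference of 9 tested fibroblast genes was -0.93 there and -0.14 in set B. The granule genes Ngp and Mmp8 differed by -2.24 and -1.60 there and by -0.07 and -0.01 in set B. Other granule genes of the list did not share this: Camp, Mmp9, Ltf and Lcn2 differed by 0.38, 0.21, 0.18 and 0.04 on Dasatinib 1. Elane and Mpo differed by -0.14 and -0.25, and the median of the 13 tested granulocyte genes was -0.03. The basal keratins Krt5 and Krt14 differed by -1.62 and -1.46 on Dasatinib 1 and by 0.14 and 0.98 in set B. The part of these in the member values was not tested. Without a block 0 of the 15 passed (limma, lowest adjusted p 1.0), and 0 passed at an unadjusted p under 0.05 in either direction by limma or by the methods' t-test.

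The drugs, given at the same dose and time, were compared directly in a fit of all 8 arrays. They are chemically distinct inhibitors, and 1 pair was compared. Within sets 0 of the 15 members passed (limma, lowest adjusted p 0.137) and 3 were lower with Dactolisib at an unadjusted p under 0.05, with 0 higher. Over all tested probe sets 0% passed, and 8.93% were lower and 5.35% higher at that unadjusted p. C5ar1 was lower with Dactolisib than with Dasatinib by -0.56 ± 0.13 on 1422190_at (adjusted p = 0.137) and by -0.40 ± 0.11 on 1439902_at (adjusted p = 0.19), and Adgre1 by -0.49 ± 0.19 (adjusted p = 0.31). For C1qa and C1qc the differences were -0.21 ± 0.10 and -0.22 ± 0.11, with 95% intervals from -0.44 to 0.03 and from -0.49 to 0.04, so a difference between the drugs in C1q was not shown. Without a block 0 passed (limma, lowest adjusted p 0.841), with 1 lower and 0 higher at an unadjusted p under 0.05, and 0 by the methods' t-test. The comparisons of the drugs with DMSO share all 4 DMSO arrays without a block and DMSO 3 within sets.

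Other macrophage genes were lower with Dactolisib in part. Of 30 further macrophage and monocyte markers 24 were tested, and within sets 4 fell and 0 rose by limma, with a median of -0.06 over the 24. Over the array, counted in the same way by the brightest probe set of each gene, 663 of 14238 genes fell and 319 rose. Cx3cr1, the fractalkine receptor, fell by 0.75 ± 0.08 (adjusted p = 0.00941), from 6.71 on DMSO 2 and 6.71 on DMSO 4 to 6.04 on Dactolisib 1, and from 6.46 on DMSO 3 to 5.60 on Dactolisib 2. Aif1, the actin-binding protein Iba1, fell by 0.53 ± 0.11. Ms4a6d, a relative of Ms4a7, fell by 0.48 ± 0.08, and Vsig4, a complement receptor of tissue macrophages, fell by 0.46 ± 0.08. With Dasatinib 0 of the 24 passed, and the lowest p values belonged to Aif1 at -0.28 ± 0.10, Clec7a at 0.45 ± 0.20, Fcgr1 at 0.22 ± 0.12 and Maf at -0.18 ± 0.10.

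Among 29 tested complement genes outside the members, 1 fell and 0 rose with Dactolisib, beside 663 lower and 319 higher of 14238 genes over the array. Itgax, the alpha chain of complement receptor 4, fell by 0.55 ± 0.09 (limma, adjusted p = 0.0183), and its levels were 9.06 on DMSO 2, 9.14 on DMSO 4, 8.64 on Dactolisib 1, 9.42 on DMSO 3 and 8.74 on Dactolisib 2. The regulator Cd55 at -0.28 ± 0.09, the integrin chain Itgb2 at -0.21 ± 0.08 and the terminal component C6 at 0.19 ± 0.08 did not pass, and the median over the list was 0.09. With Dasatinib 0 passed, and the lowest p values were those of Fcna at -0.33 ± 0.12, Serping1 at 0.32 ± 0.14, Cd59a at -0.26 ± 0.12 and Cd55 at -0.19 ± 0.10. Fcna, the ficolin that starts the lectin pathway, shared the step of C1q, with 7.60 on DMSO 5 and 7.08 on Dasatinib 1 against 4.61 to 5.26 elsewhere.

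Of 16 tested lipid and scavenger genes, chosen around Apoe, 2 fell and 0 rose with Dactolisib. Lpl, lipoprotein lipase, fell by 0.46 ± 0.10 and Lipa, the lysosomal acid lipase, fell by 0.38 ± 0.09. The cholesterol exporters Abcg1 and Abca1 differed by 0.23 ± 0.08 and 0.25 ± 0.11 and did not pass. With Dasatinib 0 passed, and Lipa, Abcg1, Plin2 and Fabp5 had the lowest p values, at 0.36 ± 0.15, 0.33 ± 0.14, -0.18 ± 0.11 and -0.24 ± 0.16. Counted by the brightest probe set of each gene, 2 of the 10 members fell, with a median of -0.26, beside 663 genes lower and 319 higher of 14238 over the array, with a median of 0.00.

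Genes of granulocytes, the sorted cell type, and of other cells moved beside the members with Dactolisib as well. Over the array 663 of 14238 genes fell and 319 rose. In the granulocyte list 2 of 13 tested genes fell, Mmp9 by 0.62 ± 0.08 and Cxcr2 by 0.55 ± 0.12, while S100a8 differed by -0.06 ± 0.08 and S100a9 by -0.08 ± 0.08. In the epithelial list 2 of 12 fell, Cldn4 by 0.48 ± 0.09 and Cdh1 by 0.33 ± 0.08, and Krt8, Krt18 and Krt19 differed by -0.34, -0.30 and -0.13. The summed epithelial level was 12.80 on Dactolisib 1 against 13.08 and 13.02 on DMSO 2 and 4, and 10.75 on Dactolisib 2 against 10.89 on DMSO 3. In the fibroblast list 0 of 9 passed, with Col1a1 at -0.12, Col1a2 at -0.06 and Col3a1 at -0.41. In the dendritic, endothelial and lymphocyte lists 0 of 12, 0 of 6 and 0 of 5 passed. The dendritic genes Flt3, Zbtb46 and Xcr1 differed by 0.03, 0.07 and 0.14, the endothelial genes Pecam1, Cdh5 and Kdr by 0.09, 0.00 and 0.12, and the lymphocyte genes Cd3e and Cd3d by 0.16 and -0.02, while Cd3g was below the filter. With Dasatinib 0 genes passed in any of these lists. The 3′ minus 5′ log2 signal of the Gapdh controls, a sign of RNA quality, differed from DMSO of the own set by 0.015 and 0.018 on the Dactolisib arrays and by -0.11 and -0.01 on the Dasatinib arrays. For the Actb controls it differed by 0.049 and 0.071 on the Dactolisib arrays and by 0.008 and 0.030 on the Dasatinib arrays. DMSO 2 minus DMSO 4 was -0.04 for Gapdh and -0.015 for Actb. The part of other cells and of RNA quality in the drug differences was not tested.

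**Figure D4:**
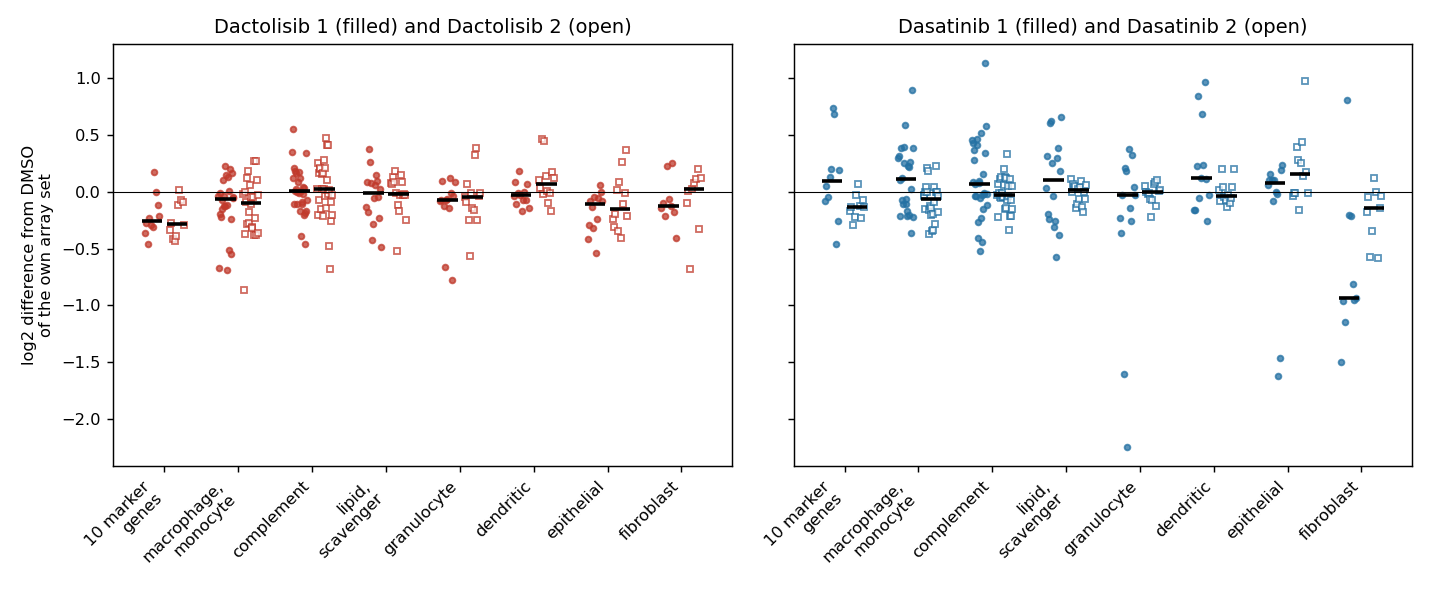
Log2 difference from DMSO of the same array set (vertical axis) for the tested genes of 8 lists (horizontal axis), with Dactolisib in the left panel, Dasatinib in the right, filled points for replicate 1, open points for replicate 2 and black bars for medians. The 10 marker genes have medians of -0.25 and -0.28 on the Dactolisib arrays and of 0.09 and -0.13 on the Dasatinib arrays, and the fibroblast genes have a median of -0.93 on Dasatinib 1.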

How the data were processed

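Affymetrix mouse arrays measured the RNA of each sample. Log2 signals of 45101 probe sets, deposited by the authors as a single table, were used as they stand. The submitters' notes name MAS5 and the study's methods name the oligo package for the summary, and the labels name Trizol and the methods RNeasy for extraction. Titles gave the treatments, because the label for treatment says Dactolisib on the Dasatinib samples too. Probe sets were matched to genes through GEO's platform annotation: 34945 had 1 gene, 932 several and 9160 none, and 64 were controls. Control probe sets were left out, and the upper 66.7% by mean signal, 30025 probe sets of 14238 genes, were tested.

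Tests of a drug against DMSO used the 6 arrays of both groups, and tests between the drugs used all 8 (limma 3.58.1, R 4.3.3, empirical Bayes, Benjamini and Hochberg adjustment over all tested probe sets, threshold 0.05). Array sets came from average linkage on 1 minus the Pearson correlation and entered as a block in the fits within sets, whose tests against DMSO leave 2 residual degrees of freedom. They were found in the same data they then adjust. A listed gene is represented by its brightest single-gene probe set. Summed levels add linear signals of a list, so its brightest genes weigh most. The text names all members and up to 4 genes with the lowest p per other macrophage, complement or lipid list and comparison, with any that pass. It also names the first 3 genes of the granulocyte list and of each other-cell list, and the 5 genes outside the members nearest to C1q. Mmp9, Cxcr2, Cldn4 and Cdh1, the calls in the granulocyte and epithelial lists, were named after their values were seen. So were Ngp, Mmp8, Ltf, Camp, Lcn2, Elane, Mpo, Krt5, Krt14, Cd14, Csf1r, Mertk, Cd163, Timd4 and Slc40a1. The members and lists were chosen with earlier results of these data known. Fits were tested on simulated data in which the planted changes were 1 log2 unit and the sets were known. The member differences are smaller and the sets were found in these data, so that test does not bear on the calls. The number of arrays limits the precision. Upstream sequences came from a RefSeq table of GRCm38.p6.

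Alternatives tried were quantile normalization, 32 added before log2, no filter, the upper 33.3% of probe sets, a trended and robust prior, other choices of arrays, each array left out, the methods' t-test, a replicate block, and the array set as a random block.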

Additional observations from a re-analysis of the deposited data

Results flagged for a closer look

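In 7 of 16 member probe sets 1 of the 4 DMSO arrays stood apart from the others, judged by its gap to the nearest array as a share of the range of the group. Chance would flag about 1 in 20 groups of independent values, but that rate is no yardstick here. DMSO 5 is the only DMSO array of set C, which stood above the other 6 arrays in 21.2% of all tested probe sets and below them in 32%. The share flagged over all probe sets was not counted, and probe sets of 1 array are not independent. DMSO 5 was high for C1qc on 1449401_at (share 0.891), Mrc1 on 1450430_at (0.922), Ms4a7 on 1424754_at (0.935) and Apoe on 1432466_a_at (0.856). DMSO 5 was low for C5ar1 on 1439902_at (0.829) and on 1422190_at (0.855). DMSO 3 was high for C3ar1 on 1419483_at (0.954), at 6.08 against 5.72 to 5.74 on the other DMSO arrays, and Dactolisib 2 is compared with this array alone within sets. Without DMSO 3 that probe set is no longer called, nor is any other tested probe set, because set A alone then carries the comparison. Its difference was -0.446 in set A alone and -0.445 in the fit within sets.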

How the results depend on the processing

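Within array sets the count of 3 member probe sets lower with Dactolisib became 8 with 32 added before log2, 8 with a trended and robust prior and 7 in the upper 33.3% of probe sets, while lower calls over all tested probe sets went from 1260 to 2483, 2486 and 2255. It became 2 with quantile normalization (976 over all) and 2 with no filter (810), 1 (C3ar1) with the array set as a random block (355), and 0 with all 8 arrays in one fit (716), where the lowest adjusted p was 0.052. Leaving out 1 array gave counts from 0 to 4. No member was called higher in any of these. For Dactolisib against Dasatinib within sets, leaving out 1 of the 8 arrays gave from 0 to 2 members called, the 2 being C3ar1 and Adgre1 without Dasatinib 2, where 408 of all tested probe sets were called higher and 710 lower. The DMSO arrays were left out here as an alternative chosen after seeing the data. The other counts of members called stayed at 0.

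Signs turned for some single genes. Without an array-set block, chosen as an alternative after seeing the data, Adgre1 with Dactolisib was 0.015, and with Dasatinib C1qa was 0.15, C1qb 0.34, C1qc 0.15, C3ar1 0.10, C5ar1 -0.29 and Mrc1 0.12. C1qb with Dasatinib was 0.019 with a random block. With 1 array left out, the differences of Mrc1 with Dactolisib ranged from -0.073 to 0.0017, and with Dasatinib those of C1qb ranged from -0.13 to 0.05, of C3ar1 from -0.22 to 0.13, of C5ar1 from -0.032 to 0.20, of Cd68 from -0.12 to 0.68 and of Apoe from -0.13 to 0.19. The causes were not tested.

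The replicate block between the drugs, which share numbers 1 and 2, gave 0 members called without array sets. No paired analysis was possible for a drug against DMSO because they share 1 replicate number. Only the 4 drug arrays within sets could not be fitted. Signal near the filter limits Mrc1 and, outside the members, Vsig4 and Aif1.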
